A study of Mus musculus with 12 samples.

Results

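The effect of doxycycline on liver RNA was measured in mice in which the drug was not meant to activate AMPK, the energy-sensing kinase that the study switches on with it. The comparison set 3 livers of doxycycline-fed iAMPK mice against 3 livers of iAMPK mice without the drug, chosen by genotype and diet in the labels, so 6 of the 12 libraries of the series were compared. All 12 libraries came from livers of C57Bl/6J mice that carried ColA-AMPKa1(312)/AMPKa1(312), a transgene for AMPK alpha1, together with R26-rtTA/rtTA, and were kept for 8 weeks on high-fat food (45% of energy as fat). The labelled genotype of the iAMPK mice holds no Cre, and both iAMPK groups are labelled as having no AMPK activation. The other 6 libraries, again 3 with and 3 without doxycycline, came from L-iAMPK mice, which carried Albumin-Cre in addition, a recombinase driven by a promoter active in hepatocytes. Of these, the 3 on doxycycline are the ones labelled as having active AMPK. The labels give neither age, sex nor dose of doxycycline, and do not say that libraries of a group came from separate animals, so p-values measure the spread between these libraries.

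Doxycycline is a tetracycline antibiotic, used in transgenic mice to make the rtTA protein bind its promoter and start transcription. It blocks the bacterial ribosome and, because mitochondrial ribosomes descend from bacterial ones, it can also slow protein synthesis inside mitochondria. Mitochondrial ribosomal proteins and most respiratory chain subunits are encoded in the nucleus, while a few core subunits are made inside the organelle, so an imbalance can engage the mitochondrial stress response led by Atf4 and Atf5. Tetracyclines are also known to inhibit matrix metalloproteinases, the enzymes that cut extracellular matrix, and they act on gut bacteria, whose products reach the liver through the portal vein and are sensed by its macrophages, the Kupffer cells.

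Expression is given as FPKM, reads scaled to transcript length and library size, and changes as differences of log2(FPKM + 0.5) with doxycycline minus without it, so that a difference of 1 is a 2-fold change of FPKM + 0.5 and the change of weakly expressed genes is understated. The 6 libraries held 13569437 to 18472791 reads in genes, the fewest in iAMPK HFD+dox replicate 1. The hepatocyte product albumin (Alb) measured 27360 to 37240 FPKM in the 6 libraries, and 23 of 24 listed hepatocyte markers were tested with a median difference of -0.04. Ddx3y, a Y-chromosome gene, measured 11.1 to 15.9 FPKM in all 12 libraries and Xist, the RNA of the inactive X chromosome, at most 0.058 FPKM. The doxycycline libraries were not alike: replicate 3 held the highest value of the 6 libraries for 36.3% of the 12614 genes tested, against 8.59% for replicate 1 and 13.1% for replicate 2. Macrophage markers and inflammatory genes followed that order most closely, and medians of the gene lists that followed it are given with and without replicate 3. The libraries also differed in general level. Over genes above 1 FPKM in every library, the median log2 FPKM was 3.05, 2.97 and 2.88 in doxycycline replicates 3, 2 and 1. It was 2.91 to 2.97 in the untreated libraries. The part of this offset in the shares above was not tested.

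Prkaa1, which encodes AMPK alpha1 and lies at chr15:5143861-5181899 of mm10, plus strand, measured 4.12, 3.28 and 2.62 FPKM without doxycycline and 2.64, 3.06 and 2.84 FPKM with it in iAMPK livers. The groups overlapped, and the difference of -0.18 had a 95% interval of -0.49 to 0.13. In L-iAMPK livers the same gene measured 3.52, 3.84 and 3.16 FPKM without the drug and 1265, 946.5 and 1003 FPKM with it, a rise of 8.05 on the log2 scale. Reads of the transgene and of the resident gene cannot be told apart in these values, and the 2 effects differed by 8.24 (limma adjusted p = 1.5e-09). The other AMPK subunits tested, the catalytic Prkaa2 and the regulatory Prkab1, Prkab2, Prkag1 and Prkag2, differed by -0.08 to 0.20 in iAMPK livers, each with its interval inside a 1.5-fold change. Prkag3, at 0.074 FPKM or less, was below the filter.

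No gene passed the test for doxycycline in iAMPK livers: 0 of 12614 genes (0%) had a limma adjusted p under 0.05 after Benjamini-Hochberg adjustment. An unadjusted p under 0.05 was found for 786 genes (6.23%), 536 higher (4.25%) and 250 lower (1.98%) with the drug, where 631 would be the count at a rate of 5%. That count was 1730 without doxycycline replicate 1, 461 without doxycycline replicate 3, 526 without doxycycline replicate 2 and 500 without untreated replicate 1. With array weights, by which libraries that spread more count less, it was 2785 (22.1%). The edgeR quasi-likelihood test on read counts also called 0 genes, with 1032 of 13580 at an unadjusted p under 0.05, while DESeq2 called 15. The 3 doxycycline libraries lay above all 3 untreated ones for 729 genes (5.78%) and below them for 562 (4.46%).

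Among genes averaging at least 1 FPKM, the smallest p of a decrease belonged to Ccnf, which encodes cyclin F, a substrate receptor of a ubiquitin ligase (chr17:24223232-24251409, minus strand). It measured 8.77, 9.69 and 9.17 FPKM without doxycycline and 5.17, 5.14 and 4.88 FPKM with it. The groups did not overlap and the spread within each was small. The difference was -0.80 with a 95% interval of -1.07 to -0.53 and a limma adjusted p of 0.494, and the gene was called by DESeq2 (adjusted p = 3.68e-05). Arhgef26 measured 13.2, 9.70 and 11.2 FPKM against 5.43, 5.31 and 5.74 FPKM, again with no overlap. Its difference was -0.98 (-1.35 to -0.60, limma adjusted p = 0.604). Rad54l2, a helicase-like protein, Foxo1, an insulin-regulated transcription factor of gluconeogenesis, and the zinc-finger gene Zfp276 completed the 5 with differences of -0.46, -0.53 and -0.47.

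The 5 increases with the smallest p included 2 genes of white blood cells. Bcl2a1b, an anti-apoptotic member of the Bcl2 family with near-identical copies that may share its reads, measured 0.250, 0.475 and 0.311 FPKM without doxycycline and 1.13, 1.598 and 2.53 FPKM with it. These values rest on 4, 8 and 5 reads without the drug and on 14, 25 and 37 reads with it. Ncf4, a subunit of the phagocyte NADPH oxidase, measured 0.759, 0.720 and 0.655 FPKM against 1.41, 1.58 and 2.41 FPKM. In both genes all doxycycline libraries lay above all untreated ones, with replicate 3 the highest of them and replicate 1 the lowest. The differences were 1.38 (0.86 to 1.89) and 0.90 (0.52 to 1.28). Socs2, a feedback inhibitor of growth hormone signalling, measured 2.44, 1.13 and 2.15 FPKM against 5.68, 4.88 and 3.99 FPKM, a difference of 1.19 (0.65 to 1.72). Tmed3, of vesicle transport between endoplasmic reticulum and Golgi, and Ugcg, which makes glucosylceramide, differed by 0.45 and 0.46. Limma adjusted p-values of these increases were 0.60 to 0.651, so none passed the test.

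The 15 genes that DESeq2 called included Ccnf, Arhgef26, Rad54l2, Foxo1, Zfp276, Bcl2a1b, Ncf4 and Socs2, described above, but not Tmed3 or Ugcg. The interleukin-1 antagonist Il1rn and the transcription factor Myc, both of gene lists below, were also called. The rest, Cish, Zbtb16, Lilr4b, Ip6k2 and A630020A06, are named here because that tool called them. Cish, which like Socs2 restrains STAT5 signalling, had the largest limma difference among the 15, 1.79 (0.96 to 2.61, limma adjusted p = 0.68). Zbtb16 measured 1.31, 2.73 and 5.06 FPKM without the drug and 0.904, 0.504 and 0.641 FPKM with it, so its untreated libraries spread widely, with a difference of -1.45 (-2.26 to -0.63). A630020A06 was below the expression filter of the limma test.

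Because a p that misses the threshold does not show that a gene was unaffected, the size of change that the data leave room for was computed. A gene was called bounded within 2-fold when its change was shown, by one-sided limma tests against both limits with Benjamini-Hochberg adjustment, to lie between a 2-fold decrease and a 2-fold increase. By this measure 11888 genes (94.2%) were bounded within 2-fold and 10366 (82.2%) within 1.5-fold. The 95% interval of a single gene lay inside the 2-fold limits for 11686 genes (92.6%). An interval that holds for all genes at once lay inside 2-fold for 5474 genes (43.4%) and inside 4-fold for 10743 (85.2%). The median difference of all genes was 0.02, and the median distance from the estimate to either end of its 95% interval, called the margin below, was 0.26, a factor of 1.20.

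**Figure D1:**
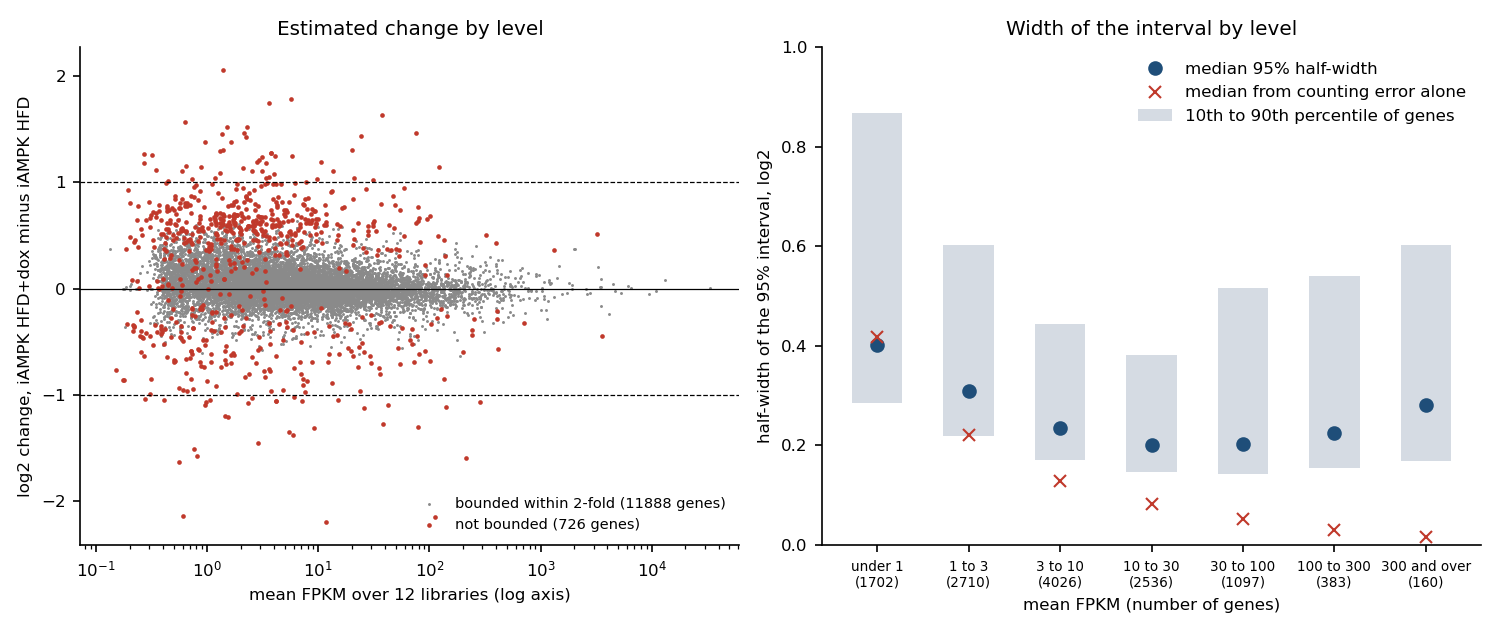
Left, the log2 difference of each of the 12614 genes in iAMPK livers (doxycycline minus none) against its mean FPKM on a log axis, with dashed lines at a 2-fold change; the 726 genes not bounded within 2-fold are in red. Right, the 95% margin by class of mean FPKM, as median (blue points) and 10th to 90th percentile (bars), with the median margin that read counting alone would give (red crosses); the blue medians are lowest, at 0.20, between 10 and 100 FPKM.

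The bounds depended on expression level. Below 1 FPKM the median margin was 0.40, a factor of 1.32, over 1702 genes, and 87.0% of them were bounded within 2-fold and 59.3% within 1.5-fold. From 1 to 3 FPKM the margin was 0.31 (2710 genes, 92.4% within 2-fold), and from 3 to 10 FPKM 0.23 (4026 genes, 96.0%). The tightest classes were 10 to 30 FPKM, where 97.7% of 2536 genes were bounded within 2-fold and 92.0% within 1.5-fold, and 30 to 100 FPKM, both with a margin of 0.20. Above that the margins widened again, to 0.22 for 383 genes from 100 to 300 FPKM and 0.28 for 160 genes at 300 FPKM and over, of which 94.8% and 94.4% were bounded within 2-fold.

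Counting error was set beside these margins. A gene below 1 FPKM had a median of 29 reads per library, and counting error alone gave a margin of 0.42 on the scale of read ratios, as wide as the measured 0.40 on the compressed scale of FPKM + 0.5. From 10 to 30 FPKM the median was 788.5 reads and the counting margin 0.08, and at 300 FPKM and over it was 0.02, far below the 0.28 measured between livers. The bound on weak genes also rested on the added 0.5: with 0.1 added in its place, 63.0% of genes below 1 FPKM were bounded within 2-fold, and over all levels 89.5%. Low genes also had the larger median differences, 0.08 below 1 FPKM and 0.06 from 1 to 3 FPKM, against 0.02 from 3 to 10 FPKM.

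The 726 genes not bounded within 2-fold leaned upward, since 544 intervals reached above a 2-fold increase, 300 below a 2-fold decrease and 118 of these passed both limits. Of the 862 tested genes that belonged to one of the gene lists below, 139 were among them. Strongly expressed members included genes that spread widely within a group. Scd1, a fatty acid desaturase, measured 410, 1666 and 3033 FPKM without the drug and 1181, 2314 and 2234 FPKM with it, a difference of 0.52 with an interval of -0.89 to 1.93. Serpina3k, a secreted protease inhibitor, measured 5429, 4088 and 2592 FPKM against 4608, 2255 and 2175 FPKM, a difference of -0.45 (-1.4 to 0.5). In both genes the untreated libraries alone covered most or all of the range.

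Nuclear genes of mitochondrial translation differed little. Of 141 listed genes 140 were tested, 0 were called, and all 140 were bounded both within 2-fold and within 1.5-fold, against 94.2% and 82.2% of all genes. The widest limits of any member were a decrease of 0.52 for Mrps2 and an increase of 0.50 for Ears2, which are factors of 0.698 and 1.41. The median difference was -0.05, beside 0.02 over all genes, with 35 members positive and 105 negative. An unadjusted p under 0.05 was found for 8 (5.71%, beside 6.23% of all genes). Of these, 7 were lower and 1 higher with the drug, where 1.98% of all genes were lower and 4.25% higher. The doxycycline libraries lay below all untreated ones for 16 of the 140 members, beside 4.46% of all genes. They lay above them for 2, beside 5.78% of all genes. The mean log2 level of the 140 genes was 3.71, 3.66 and 3.58 in the untreated livers and 3.604, 3.606 and 3.602 in the doxycycline livers, so the untreated livers spread over more than the gap between the groups. Without untreated replicate 1, in which 57 members had their highest value, the median difference was -0.02.

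The 81 tested proteins of the mitochondrial ribosome had a median difference of -0.05 and a median margin of 0.19. Mrpl12, a large-subunit protein and the most strongly expressed of them, measured 78.7, 74.1 and 66.2 FPKM without doxycycline and 69.9, 63.6 and 61.6 FPKM with it. The groups overlapped and the difference was -0.16 (-0.33 to 0.00). Mrps2, a small-subunit protein, measured 20.7, 21.9 and 19.0 FPKM against 17.6, 16.9 and 15.6 FPKM, with no overlap, and differed by -0.29 (-0.52 to -0.06, limma adjusted p = 0.799). Mrps22, also of the small subunit, leaned the other way, with 13.6, 12 and 9.52 FPKM against 13.4, 14.4 and 14.0 FPKM and a difference of 0.25 (0.03 to 0.47). These were the lowest and the highest estimates among the ribosomal proteins.

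Translation factors and the enzymes that charge and process mitochondrial tRNAs were as narrowly bounded. The 28 factors had a median difference of -0.08 and the 31 tRNA genes one of -0.03. Gfm1, the elongation factor that moves the ribosome along, measured 43.2, 43.4 and 42.6 FPKM without the drug and 42.7, 45.0 and 43.3 FPKM with it. The groups overlapped, and the difference was 0.02 (-0.10 to 0.13). Tufm, the elongation factor that delivers charged tRNAs, differed by -0.09 (-0.38 to 0.20). Mtg2, a GTPase of ribosome assembly, measured 10.6, 9.49 and 10.1 FPKM against 8.96, 8.61 and 8.39 FPKM, with no overlap, a difference of -0.21 (-0.38 to -0.03). Lrpprc, which stabilises mitochondrial mRNAs, differed by -0.19 (-0.39 to 0.00) and Fars2, which charges phenylalanine tRNA, by -0.15 (-0.30 to 0.00). None of them passed the test.

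**Figure D2:**
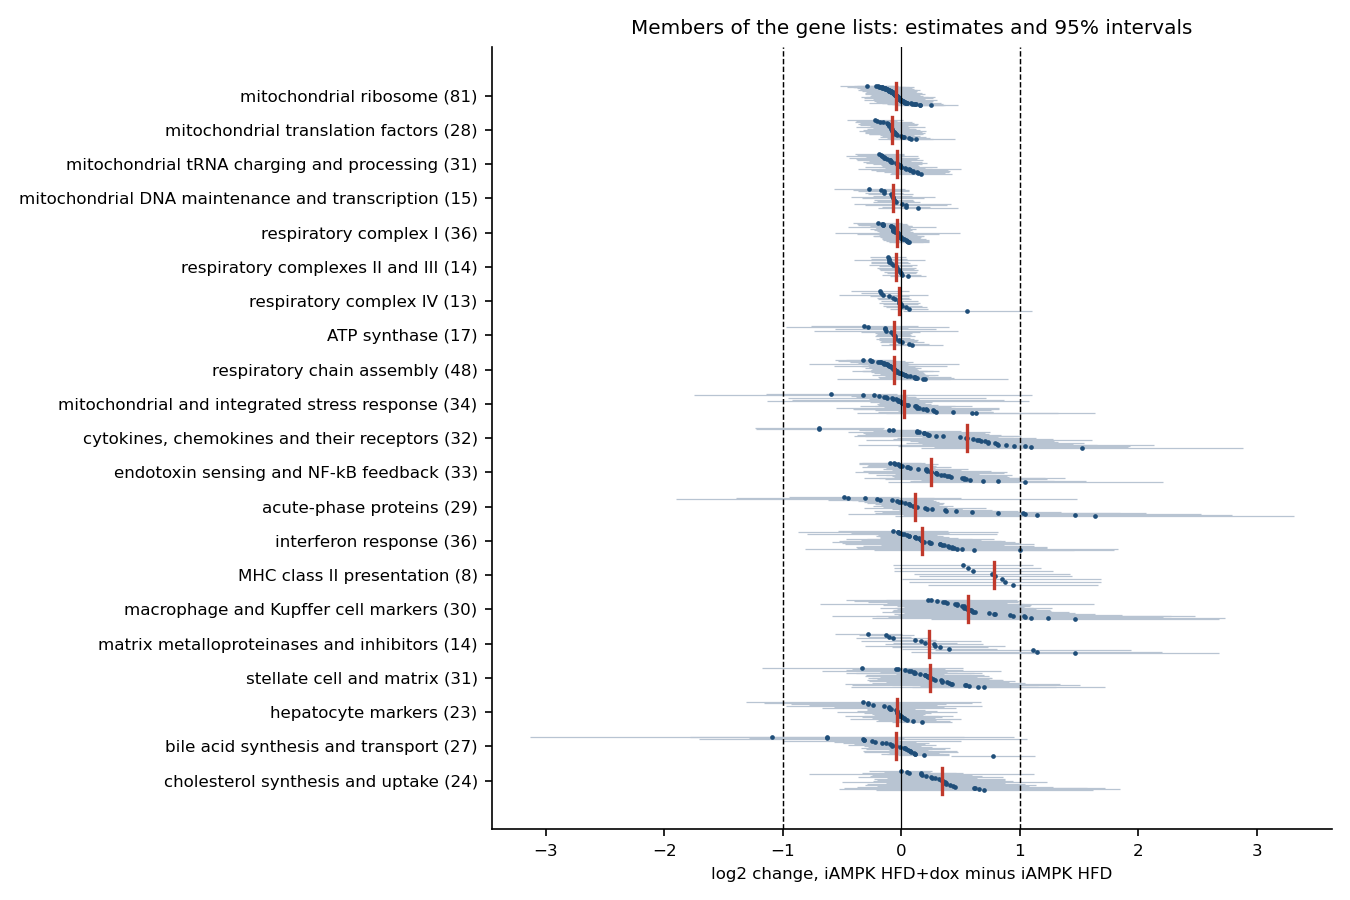
Log2 difference (doxycycline minus none, iAMPK livers) of each tested member of 21 gene lists, as points with 95% intervals, ordered by estimate within a list; the number of members tested stands in brackets, the red bar is the list's median and dashed lines mark a 2-fold change. Mitochondrial translation and respiration lie in a narrow band around 0, with medians of -0.08 to -0.02, while MHC class II, macrophage and cytokine genes spread to the right with medians of 0.55 to 0.78.

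The nuclear subunits of the respiratory chain gave the same picture. All 80 listed genes were tested, 0 were called, 79 (98.8%) were bounded within 2-fold and 76 (95%) within 1.5-fold. Their median difference was -0.05 and their median margin 0.17, narrower than the 0.26 of all genes, with 16 members positive. The doxycycline libraries lay below all untreated ones for 15 of the 80 members, beside 4.46% of all genes. They lay above them for 1, beside 5.78% of all genes. The mean log2 level was 6.04, 6.03 and 5.94 without and 5.93, 5.97 and 5.97 with doxycycline. By complex, the medians were -0.04 for the 36 subunits of complex I, which takes electrons from NADH, -0.04 for the 14 of complexes II and III, -0.02 for the 13 of complex IV, the oxygen-consuming oxidase, and -0.07 for the 17 of ATP synthase.

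Atp5b, the catalytic beta subunit of ATP synthase, measured 626, 613 and 578 FPKM without doxycycline and 582, 580 and 573 FPKM with it. The groups overlapped and the difference was -0.07 (-0.21 to 0.08). Cox4i1, of complex IV, measured 445, 439 and 404 FPKM against 422, 389 and 388 FPKM, a difference of -0.10 (-0.27 to 0.06). Cox5a of the same complex measured 153, 143 and 138 FPKM against 131, 125 and 130 FPKM, with no overlap between the groups. Its difference of -0.17 (-0.34 to 0.00) had a limma adjusted p of 0.799. Ndufa5 of complex I, with no overlap either, differed by -0.16 (-0.31 to 0.00), and Uqcrh of complex III by -0.12 (-0.27 to 0.04).

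The member not bounded within 2-fold was Cox7a1, a form of a complex IV subunit that is best known from heart and muscle. It measured 1.32, 3.01 and 1.84 FPKM without the drug and 2.39, 3.64 and 3.46 FPKM with it, so the groups overlapped. The difference was 0.56 with an interval of 0.01 to 1.10 (limma adjusted p = 0.799). Atp5g2, at 0.148 to 0.669 FPKM, had the lowest limit, -0.97, and lies in the class below 1 FPKM, where the median margin was 0.40.

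All 48 tested assembly factors of the chain were bounded within 2-fold and 46 within 1.5-fold, with a median difference of -0.06 and 5 decreases at an unadjusted p under 0.05 (10.4% of them, beside 1.98% of all genes for decreases). Ndufaf4, a complex I assembly factor, measured 10.2, 8.95 and 8.41 FPKM without doxycycline and 7.26, 7.69 and 6.75 FPKM with it, with no overlap. The difference was -0.32 (-0.56 to -0.09, limma adjusted p = 0.799). Tmem126b, also of complex I assembly, differed by -0.26 (-0.44 to -0.07), Cox10, which makes the heme of complex IV, by -0.26 (-0.47 to -0.06) and Cox20, a chaperone of a complex IV core subunit, by -0.18 (-0.34 to -0.02). The 15 genes of mitochondrial DNA maintenance and transcription were all bounded within 1.5-fold, with a median of -0.07. Esrra, a nuclear receptor that drives respiratory genes, was the lowest of them at -0.27 (-0.57 to 0.03). The 13 protein-coding genes of the mitochondrial genome itself were not analysed here.

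Genes of the mitochondrial and integrated stress response were less tightly bounded, 30 of 34 within 2-fold and 21 within 1.5-fold, with a median of 0.02. Atf4, the transcription factor at its centre, measured 43.2, 44.8 and 43.2 FPKM without doxycycline and 45.2, 50.4 and 57.8 FPKM with it. All doxycycline libraries lay above the untreated ones, by a difference of 0.22 (-0.03 to 0.46, limma adjusted p = 0.806). Atf5, which directs the response to unfolded mitochondrial proteins, measured 81.4, 102 and 94.6 FPKM against 102, 106 and 129 FPKM, a difference of 0.28 (-0.03 to 0.59). Both had replicate 3 as their highest library. The mitochondrial protease Lonp1 differed by -0.01 (-0.13 to 0.12), the chaperones Hspd1 and Hspa9 by -0.05 (-0.25 to 0.15) and -0.02 (-0.15 to 0.11), and Ddit3, a pro-apoptotic target of Atf4, by 0.06 (-0.20 to 0.31).

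The secreted stress hormones varied widely within groups. Gdf15 measured 21.7, 14.8 and 8.75 FPKM without the drug and 6.04, 7.33 and 30.7 FPKM with it, so the doxycycline libraries held both its lowest and its highest value. Its interval ran from -1.75 to 1.10. Fgf21 measured 5.05, 14.6 and 6.77 FPKM against 4.05, 7.89 and 14.6 FPKM, an interval of -1.13 to 1.08, although the one-sided tests placed it within 2-fold (limma adjusted p = 0.0416). Mthfd2, a mitochondrial folate enzyme and Atf4 target, measured 0.369, 0.329 and 0.298 FPKM against 0.448, 0.613 and 0.858 FPKM, with no overlap and a difference of 0.44 (0.10 to 0.78). Nupr1, Atf3 and Cebpb were the other 3 not bounded within 2-fold, Nupr1 with an upper limit of 1.64.

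Inflammatory genes were bounded less often than the mitochondrial groups. Of 181 listed genes 164 were tested, and 0 were called, but 141 had a positive difference and 33 increases against 3 decreases had an unadjusted p under 0.05 (22.0% of the members, beside 6.23% of all genes). The median difference was 0.35, and only 103 members (62.8%) were bounded within 2-fold and 49 (29.9%) within 1.5-fold. The limits ran from -1.90 for Hamp to 3.31 for Lcn2. The members' median margin was 0.58, a factor of 1.495, and it exceeded that of all genes at every level, for example 0.61 against 0.23 between 3 and 10 FPKM and 0.51 against 0.20 between 10 and 30 FPKM.

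The width came with the spread among the doxycycline livers. The median SD of an inflammatory gene on the log2 scale was 0.20 among the untreated and 0.46 among the doxycycline libraries, and 140 of 164 members varied more with the drug (85.4%, beside 56.5% of all genes). Replicate 3 on doxycycline was the highest of the 6 libraries for 119 members (72.6%, beside 36.3% of all genes). The mean log2 level of the 164 genes was 3.26, 3.37 and 3.47 without and 3.33, 3.76 and 4.17 with doxycycline, so replicate 1 on the drug lay within the untreated range. Without replicate 3 the median difference was 0.16 and 129 members were bounded within 2-fold. Without replicate 1 it was 0.57, with 77 bounded and 92 of 164 (beside 13.7% of all genes in that fit) at an unadjusted p under 0.05, still with 0 called.

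**Figure D3:**
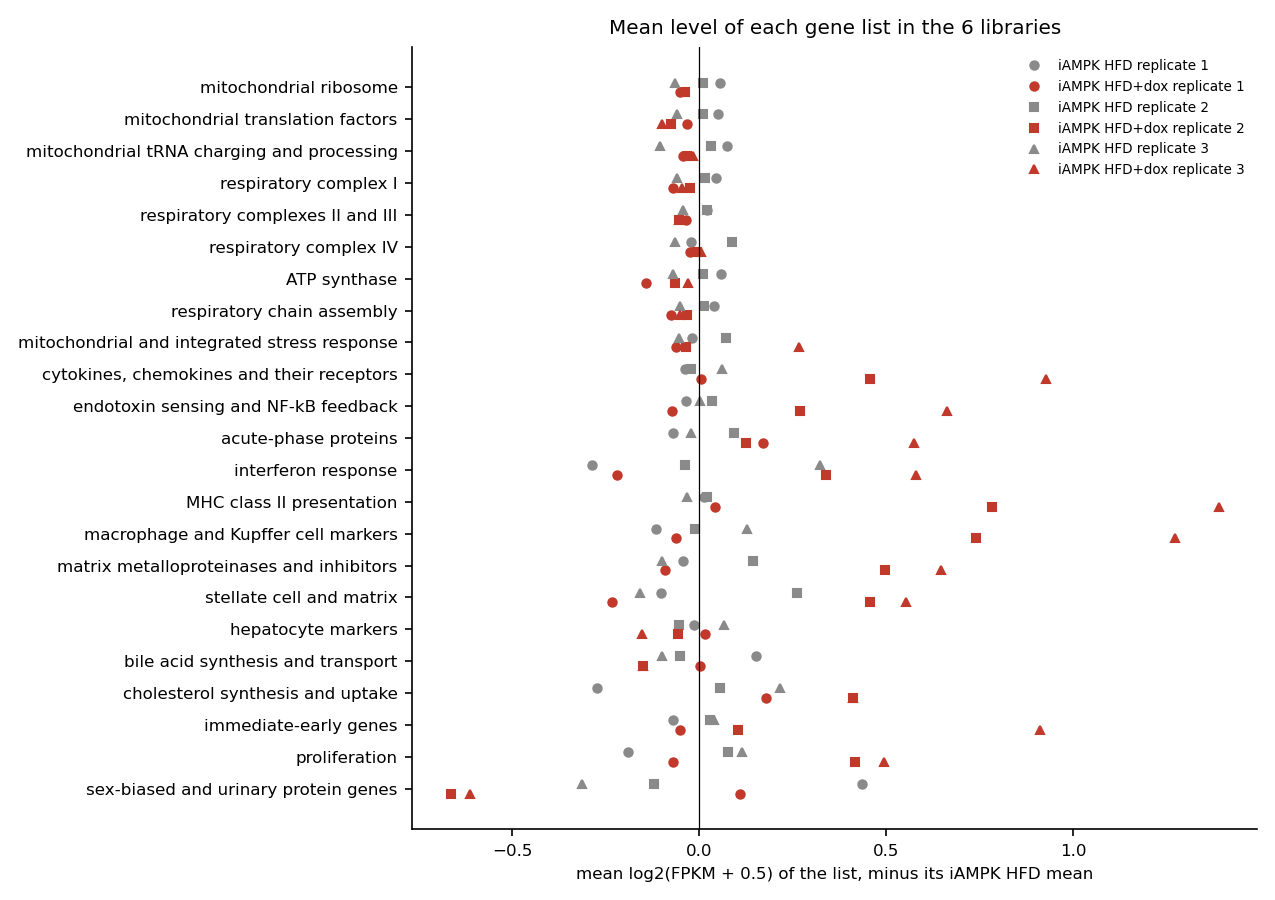
Mean log2(FPKM + 0.5) of the tested members of 23 gene lists in each of the 6 iAMPK libraries, relative to the mean of the 3 untreated libraries (0 on the horizontal axis); gray symbols are untreated and red symbols doxycycline livers, with a symbol for each replicate number. Doxycycline replicate 3 (red triangle) is farthest to the right for cytokine, MHC class II, macrophage and immediate-early lists, and replicate 1 (red circle) lies near the untreated libraries.

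Macrophage markers, which are also members of the inflammatory list, followed the same order of livers. All 30 tested of 31 listed markers had a positive difference, with a median of 0.56 and 11 bounded within 2-fold. Without replicate 3 the median was 0.31 and 21 were bounded. Their mean log2 level was 2.38, 2.48 and 2.62 in the untreated and 2.43, 3.23 and 3.76 in the doxycycline livers, and their summed level was 356 to 436 FPKM in the former and 388, 596 and 914 FPKM in the latter. For 28 of the 30, replicate 3 exceeded replicate 2 and replicate 2 exceeded replicate 1 (93.3%, beside 38.7% of all genes). None of the listed macrophage markers was at 0 in all 6 libraries. In bulk tissue, fewer or more cells of a type and less or more RNA per cell cannot be told apart, and the part of macrophage number in the inflammatory values was not tested.

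The markers differed in how far replicates 2 and 3 exceeded the untreated livers. Clec4f, specific to resident Kupffer cells, measured 42.4, 33.6 and 54.2 FPKM without doxycycline and 47.0, 57.6 and 61.5 FPKM with it, a difference of 0.36 (-0.09 to 0.82). Adgre1, the F4/80 antigen, measured 6.26, 4.70 and 7.49 FPKM against 6.02, 9.65 and 10.7 FPKM, a difference of 0.47 (-0.16 to 1.09). Both groups overlapped in these 2 genes. Cd68, a lysosomal protein of phagocytes, measured 7.30, 6.96 and 9.80 FPKM against 10.1, 13.01 and 21.01 FPKM with no overlap, a difference of 0.79 (0.18 to 1.4). Ccr2, the chemokine receptor of recruited monocytes, measured 0.584, 0.819 and 0.488 FPKM against 0.790, 1.92 and 3.89 FPKM, a difference of 1.09 (0.27 to 1.91). Spp1, osteopontin, measured 26.2, 60.2 and 27.2 FPKM against 24.6, 71.2 and 178 FPKM, with the wide interval of -0.59 to 2.48.

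Libraries without the drug covered much of the same range in the other genotype. In untreated L-iAMPK livers the mean log2 level of the macrophage markers was 3.46, 3.36 and 2.94 and their summed level 726, 742 and 511 FPKM, between doxycycline replicates 1 and 3 of the iAMPK mice. The inflammatory list had means of 3.755, 3.656 and 3.523 there. The first nearly equalled doxycycline replicate 2 of the iAMPK mice (3.757), and all lay below replicate 3 (4.168).

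MHC class II genes, which present antigen to T cells, showed the most even pattern. All 8 were positive, with a median difference of 0.78, and 0 were bounded within 2-fold. Cd74, the invariant chain, measured 55.8, 54.6 and 55.6 FPKM without doxycycline and 57.0, 98.2 and 150 FPKM with it. H2-Aa measured 31.0, 31.6 and 31.6 FPKM against 32.3, 64.8 and 92.4 FPKM, and H2-Ab1 18.1, 18.3 and 15.7 FPKM against 20.7, 32.5 and 56.7 FPKM. In each the untreated livers were nearly equal, replicate 1 on doxycycline lay just above them and replicate 3 was the highest library. The differences were 0.77 (0.10 to 1.43), 0.87 (0.06 to 1.68) and 0.94 (0.22 to 1.66), all with a limma adjusted p of 0.799. Without replicate 3 the median of the 8 genes was 0.46 and 5 were bounded within 2-fold.

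Cytokines, chemokines and their receptors had a median difference of 0.55 over 32 tested of 45 listed genes, with 28 positive and 14 bounded within 2-fold. Replicate 3 was the highest library for 23 of them, and without it the median was 0.32 and 23 were bounded. Ccl2, the chemokine that recruits monocytes, measured 0.950, 1.30 and 0.767 FPKM without the drug and 0.998, 4.49 and 10.05 FPKM with it. Il1b, interleukin-1 beta, measured 1.14, 1.35 and 1.27 FPKM against 1.06, 3.70 and 5.39 FPKM. In both, replicate 1 lay within or just below the untreated range and replicates 2 and 3 far above it, and the intervals of 0.17 to 2.89 and -0.03 to 1.93 were accordingly wide. Il1rn, the interleukin-1 receptor antagonist, had no overlap, with 2.0, 3.14 and 2.54 FPKM against 3.76, 5.58 and 8.83 FPKM, a difference of 1.04 (0.47 to 1.61, limma adjusted p = 0.799). Csf1, the macrophage growth factor, and Cxcl16, a chemokine of phagocytes, did not overlap either and differed by 0.49 (0.17 to 0.81) and 0.55 (0.15 to 0.94). Cxcl12, the most strongly expressed of the list at 54.5 to 68.9 FPKM, differed by -0.07 (-0.31 to 0.16). Tnf, at 0.631 FPKM or less, was below the filter.

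Sensors of bacterial products and their feedback genes had a lower median, 0.25, and 27 of 33 were bounded within 2-fold. Replicate 3 was the highest library for 27 of them, and without it the median was 0.09. Tlr4, the receptor for endotoxin, differed by 0.21 (-0.15 to 0.57) at 0.343 to 0.708 FPKM, and Lbp, the plasma protein that carries endotoxin to it, by -0.07 (-0.33 to 0.20). Cd14, the co-receptor, measured 1.61, 2.56 and 1.82 FPKM without and 1.52, 4.84 and 11.8 FPKM with doxycycline, an interval of -0.11 to 2.21. Tlr2, for bacterial lipoproteins, differed by 0.82 (0.07 to 1.56), with replicate 1 again inside the untreated range. Rel, an NF-kB subunit, measured 0.629, 0.509 and 0.735 FPKM against 1.005, 1.001 and 1.37 FPKM, with no overlap and a difference of 0.53 (0.18 to 0.88). The 36 interferon-response genes had a median of 0.17, or 0.03 without replicate 3, and 31 were bounded within 2-fold, with Gbp2 the highest estimate at 0.997 (0.20 to 1.79).

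Acute-phase proteins, which hepatocytes secrete during inflammation, split by gene. The 29 tested had a median of 0.11, with 20 bounded within 2-fold. Lcn2, the iron-scavenging lipocalin (chr2:32384637-32387739, minus strand), measured 9.29, 25.8 and 16.5 FPKM without the drug and 13.03, 59.8 and 158 FPKM with it. Saa1, serum amyloid A, measured 76.5, 124 and 81.3 FPKM against 105, 189 and 423 FPKM, and its close paralog Saa2, with which it may share reads, 34.0, 65.8 and 42.7 FPKM against 53.6, 126 and 301 FPKM. The lowest doxycycline library lay inside the untreated range in all 3 genes, and the intervals were -0.05 to 3.31, 0.01 to 2.28 and 0.14 to 2.79. Hamp, the iron hormone hepcidin, measured 531, 351 and 743 FPKM against 634, 307 and 461 FPKM, an interval of -1.90 to 1.48. Stat3, the transcription factor of the acute phase, differed by 0.26 (0.01 to 0.51) and Mt1, a metal-binding protein, by -0.49 (-0.95 to -0.02).

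**Figure D4:**
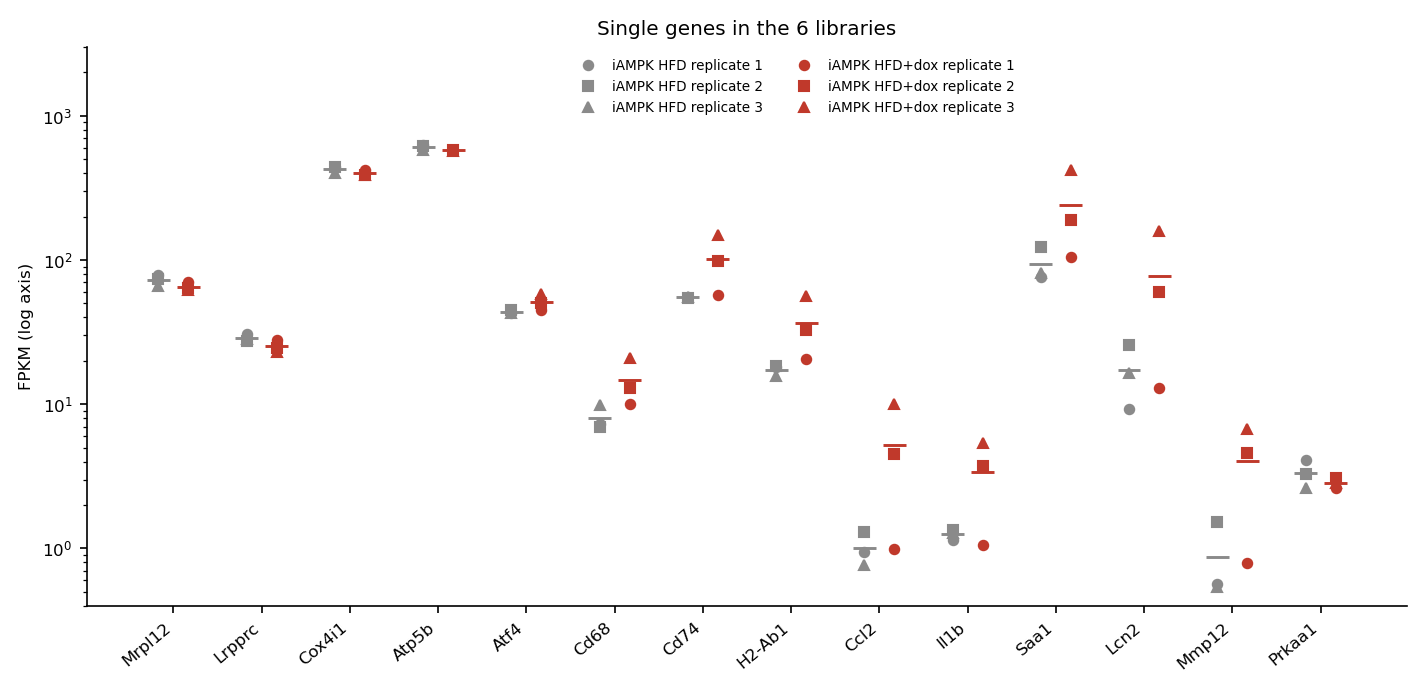
FPKM (log axis) of 14 genes in each of the 6 iAMPK libraries, untreated in gray and doxycycline in red, with a symbol for each replicate number and a bar at each group's mean. Mitochondrial genes from Mrpl12 to Atp5b sit at nearly the same height in both groups, while Ccl2, Il1b, Lcn2 and Mmp12 spread from the untreated level (doxycycline replicate 1) to well above it (replicate 3).

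Other cell types and signs of handling were read beside these values. Immediate-early genes, which respond within minutes to stress of a tissue, had a mean log2 level of 1.95, 2.05 and 2.06 in the untreated and 1.97, 2.12 and 2.93 in the doxycycline livers, so they were high in replicate 3 and near the untreated range in replicate 2. Their median difference was 0.25, and -0.10 without replicate 3. Klf6, of that list, measured 2.81, 3.70 and 2.92 FPKM against 4.06, 5.96 and 7.50 FPKM, and Myc 0.776, 0.982 and 0.632 FPKM against 6.10, 1.48 and 2.41 FPKM, highest in replicate 1. Of 19 lymphocyte markers 4 passed the filter and of 11 neutrophil markers 4, with neutrophil levels summing to 1.88 to 3.20 FPKM without and 2.755 to 6.22 FPKM with doxycycline. The 16 endothelial markers had a median of 0.18, with 15 bounded within 1.5-fold. The markers of other tissues summed to 329 to 439 FPKM without and 366 to 424 FPKM with the drug. The part of these in the inflammatory values was not tested.

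Matrix metalloproteinases and their inhibitors, whose enzyme activity tetracyclines are known to block, differed by a median of 0.24 over 14 tested of 24 listed genes, and 11 were bounded within 2-fold. Without replicate 3 the median was 0.08. Mmp12, the macrophage elastase, measured 0.569, 1.52 and 0.539 FPKM without doxycycline and 0.787, 4.55 and 6.75 FPKM with it. Mmp13, a collagenase, measured 0.143, 0.373 and 0.195 FPKM against 0.254, 1.39 and 2.26 FPKM, and Timp1, an inhibitor of these enzymes, 0.487, 0.462 and 0.107 FPKM against 0.350, 1.38 and 3.37 FPKM. These 3 were the ones not bounded, with intervals of 0.25 to 2.68, 0.29 to 1.94 and 0.08 to 2.20, and all followed the order of the macrophage markers. The most strongly expressed member, Mmp19, differed by -0.10 (-0.28 to 0.08), and Mmp14 and the gelatinase Mmp2 by 0.33 (-0.08 to 0.73) and 0.16 (-0.34 to 0.67). Mmp9 was below the filter.

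Stellate cell and matrix genes had a median difference of 0.24, with 28 of 31 positive and 25 bounded within 2-fold. They followed the order of the macrophage markers in 21 of 31 genes, their mean log2 level was 1.73 in replicate 1, below the untreated 1.81 to 2.23, and without replicate 3 the median was 0.08. Col1a1, the main fibrillar collagen, measured 0.769, 2.34 and 0.522 FPKM without the drug and 0.806, 2.22 and 2.72 FPKM with it, so untreated replicate 2 lay above 2 of the 3 doxycycline livers. Its interval was -0.42 to 1.51. Acta2, the actin of activated stellate cells, measured 2.17, 1.36 and 0.977 FPKM against 2.26, 3.34 and 2.46 FPKM, with no overlap and a difference of 0.70 (0.09 to 1.30), and Tagln, of smooth muscle cells, differed by 0.57 (0.16 to 0.99). Proliferation genes leaned upward as well, 17 of 19 positive with a median of 0.28. Replicate 3 was the highest library for 13 of them, replicate 1 lay within the untreated range with a mean log2 level of 0.64, and without replicate 3 the median was 0.16. Mcm3 and Mcm5, of the replicative helicase, differed by 0.38 (0.04 to 0.72) and 0.57 (0.15 to 1.0). None of these genes passed the test.

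Lipid genes varied between livers of a group as well as between the groups. The 24 genes of cholesterol synthesis and uptake had a median difference of 0.34, with 23 positive, but 17 were bounded within 2-fold and 6 within 1.5-fold. Their mean log2 level was 4.18, 4.504 and 4.67 without and 4.63, 4.86 and 4.86 with doxycycline, so the lowest doxycycline liver lay below the highest untreated one. The group means of this level differed by 0.33, beside an SD of 0.25 among the untreated and 0.13 among the doxycycline livers. The doxycycline libraries lay above all untreated ones for 6 of the 24 members, beside 5.78% of all genes. They lay below them for 0, beside 4.46% of all genes. Mvk, mevalonate kinase, measured 7.43, 8.69 and 8.11 FPKM against 10.3, 11.5 and 10.1 FPKM, with no overlap, and differed by 0.38 (0.05 to 0.71). Hmgcs1, which makes the precursor of mevalonate, differed by 0.66 with an interval of -0.53 to 1.84. Fasn, fatty acid synthase, measured 15.8, 29.9 and 44.4 FPKM against 19.0, 62.3 and 71.7 FPKM, an interval of -0.91 to 2.24.

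Of 33 genes of fatty acid oxidation and PPAR-alpha targets, 27 were bounded within 2-fold, and the median was -0.07. Angptl4, an inhibitor of lipoprotein lipase and PPAR target, measured 78.6, 71.4 and 84.4 FPKM without and 54.1, 53.8 and 38.2 FPKM with doxycycline. The groups did not overlap, and the difference was -0.69 (-1.11 to -0.27, limma adjusted p = 0.799). Ppp1r3b, which directs a phosphatase to glycogen, measured 54.8, 46.2 and 62.8 FPKM against 32.7, 46.4 and 35.2 FPKM and differed by -0.52 (-0.82 to -0.22).

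Bile acid and drug-metabolism genes were read because gut bacteria modify bile acids and because drugs can induce their own metabolism. The rate-limiting enzyme of bile acid synthesis, Cyp7a1, measured 58.3, 15.3 and 35.0 FPKM without doxycycline and 27.4, 32.1 and 18.0 FPKM with it, a difference of -0.32 with an interval of -1.71 to 1.06. Cyp8b1, which makes cholic acid, differed by 0.03 (-0.34 to 0.41). Nr0b2, the bile acid-induced repressor SHP, measured 28.7, 24.6 and 23.9 FPKM against 12.6, 12.8 and 27.2 FPKM, so replicate 3 lay within the untreated range and the other two below it. Slc51b, a subunit of the bile acid exporter, measured 0.197, 0.187 and 0.196 FPKM against 0.638, 0.907 and 0.539 FPKM, with no overlap and a difference of 0.77 (0.42 to 1.12, limma adjusted p = 0.651), but these rest on 2 reads in each untreated library and on 5, 9 and 5 reads with the drug. The bile acid importer Slc10a1 differed by -0.31 (-0.59 to -0.04).

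Targets of the xenobiotic receptors were bounded unevenly, 27 of 35 within 2-fold. Cyp3a11, a target of PXR, measured 148, 348 and 226 FPKM without and 183, 286 and 290 FPKM with the drug, an interval of -1.49 to 1.74. Cyp2b10, a target of CAR, stayed at 0.169 to 1.48 FPKM in all 6 livers, and Cyp1a2, a target of the aryl hydrocarbon receptor, differed by -0.61 (-1.36 to 0.13). Ugt1a9, of a cluster whose members share exons and reads, measured 196, 243 and 219 FPKM against 268, 304 and 295 FPKM, with no overlap and a difference of 0.40 (0.19 to 0.61, limma adjusted p = 0.748). The receptor CAR itself, Nr1i3, differed by -0.38 (-0.74 to -0.02).

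The widest margins of any list belonged to sex-biased and urinary protein genes, with a median of 1.16 and 6 of 17 bounded within 2-fold. Hsd3b5, a steroid-metabolising enzyme of male liver, measured 78.9, 9.93 and 3.33 FPKM without doxycycline and 43.5, 0.485 and 0.260 FPKM with it, an interval of -5.58 to 1.19. Replicate 1 was the highest library in both groups. Clock genes had a median of -0.15 over 18 genes, with 15 bounded within 2-fold, and Ciart, a clock output gene, was not bounded, with 4.25, 2.70 and 10.5 FPKM against 4.26, 3.64 and 0.450 FPKM.

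The iAMPK livers serve as the drug control of the L-iAMPK livers, in which doxycycline switches AMPK on, and the 2 drug effects share no library. In L-iAMPK livers doxycycline changed 3259 of 12614 genes (25.8%), 600 upward (4.76%) and 2659 downward (21.1%). The split depended on the scaling: with median-ratio scaling, which moved the median difference of all genes from -0.13 to 0.00, it was 1481 upward and 1433 downward, and with quantile normalization 1582 and 1323. Of the genes called with the first scaling, 582 of those upward (97%) and 2536 of those downward (95.4%) were bounded within 2-fold in iAMPK livers. These shares were near the 94.2% of all genes. The effects of the drug differed between the genotypes for 1663 genes (13.2%), tested as an interaction, 254 higher (2.01%) and 1409 lower (11.2%) in L-iAMPK, and 721 higher and 724 lower with median-ratio scaling. The count of 1663 depended on single libraries: it was 527 without doxycycline replicate 2 of the iAMPK mice, 783 without replicate 3 and 2803 without replicate 1, 561 and 589 without untreated L-iAMPK replicates 1 and 2, and 633 without untreated iAMPK replicate 1. Without replicates 1, 2 and 3 of the L-iAMPK mice on doxycycline it was 800, 976 and 844. The count of L-iAMPK changes was 1874 and 1900 without untreated L-iAMPK replicates 1 and 2, and 2170 without replicate 2 on doxycycline.

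Genes that rose at least 2-fold with AMPK activation had a median near 0 in the control. For these 92 genes the median L-iAMPK difference was 1.36 and the median iAMPK difference -0.07, with the 10th to 90th percentiles at -0.40 and 0.29 and with 34.8% of them above 0 where 57.1% of all genes were. Without untreated iAMPK replicate 1 the median was -0.01 and 47.8% were above 0. Of them 76 (82.6%, beside 94.2% of all genes) were bounded within 2-fold in iAMPK livers. This count rested partly on the added 0.5: with 0.1 added in its place, 62 were bounded, beside 89.5% of all genes. The interaction passed the test for 69, a count raised by choosing genes for their L-iAMPK change, which enters it. Muc13, a cell-surface mucin, had 0 to 2 reads in each iAMPK library and measured 20.8 to 30.8 FPKM in L-iAMPK livers on doxycycline. It met the expression filter through the latter livers, and with so few reads it could show no decrease in iAMPK livers. For genes this low in iAMPK livers, the added 0.5 holds the difference near 0. How many of the 92 were of this kind was not counted, and Prkaa1 is among the 92. With a filter at 2 FPKM, which can also be met through the L-iAMPK livers, 74 remained. Their median was -0.09 and 58 were bounded within 2-fold, beside 95.3% of all genes. Csad, of taurine synthesis, measured 41.8, 50.3 and 30.2 FPKM without and 32.2, 40.4 and 45.6 FPKM with the drug in iAMPK livers, a difference of -0.03 (-0.55 to 0.48) beside a rise of 2.37 in L-iAMPK. Cyp2c29, a drug-metabolising cytochrome, differed by -0.06 (-0.49 to 0.36) in iAMPK livers beside a rise of 2.62.

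**Figure D5:**
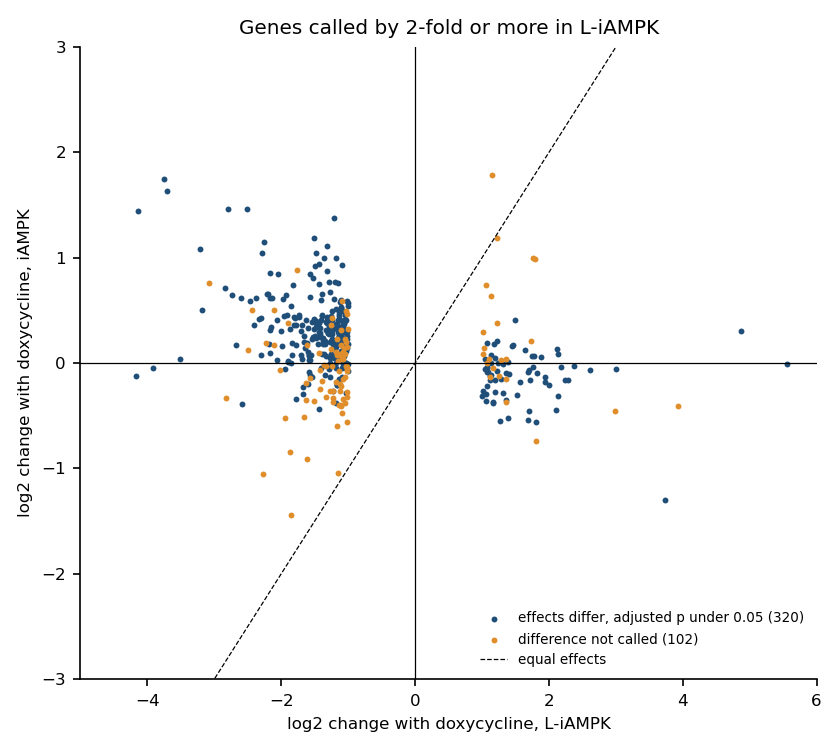
Log2 difference with doxycycline in L-iAMPK livers (horizontal) and in iAMPK livers (vertical) for the 422 genes that changed by 2-fold or more in L-iAMPK, Prkaa1 left out because it lies off the axis at 8.05; blue points are the 320 genes whose effects differed between the genotypes (limma adjusted p under 0.05), orange the other 102, and the dashed line marks equal effects. Genes lowered in L-iAMPK lie mostly above 0 in iAMPK, with a median of 0.21, and few points lie near the dashed line.

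Genes that fell at least 2-fold with AMPK activation leaned the other way in the control. For these 331 genes the median L-iAMPK difference was -1.28 and the median iAMPK difference 0.21, and 23.6% of them were below 0 in iAMPK livers where 42.9% of all genes were. Of them 231 (69.8%, beside 94.2% of all genes) were bounded within 2-fold in iAMPK livers, and the interaction passed the test for 252, a count raised in the same way. This lean also rested on single livers: without doxycycline replicate 3 the median was 0.08 and 33.2% were below 0 (51.9% of all genes), and without untreated iAMPK replicate 1 the median was 0.12. It was 0.39 without doxycycline replicate 1 and 0.31 without untreated replicate 2. Macrophage and inflammatory genes were among them. Cd74 fell by 1.20 in L-iAMPK livers, beside the 0.77 above 0 in iAMPK livers, and Il1rn fell by 1.48, beside 1.04.

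Metabolic genes with the largest falls were flat in the control. Acsf2, an acyl-CoA synthetase relative, measured 31.9, 29.6 and 25.9 FPKM without and 24.1, 29.8 and 26.2 FPKM with doxycycline in iAMPK livers, a difference of -0.12 (-0.41 to 0.17), and fell by 4.17 in L-iAMPK. Abcc3, an exporter of conjugated bile acids and drugs, differed by 0.04 (-0.29 to 0.37) and fell by 3.51. Ces1g, a lipid-hydrolysing carboxylesterase, differed by -0.05 (-0.42 to 0.33) and fell by 3.92. Lcn2 fell by 3.71 in L-iAMPK livers and differed by 1.63 in the control, where it did not pass the test and its interval included 0. The difference between both effects, -5.34, was larger than the fall itself.

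The 10 genes with the smallest p in iAMPK livers were read in the other genotype too. Socs2 differed by 1.19 in iAMPK and rose by 1.22 in L-iAMPK livers, an interaction of 0.04 (limma adjusted p = 0.95). Rad54l2 differed by -0.46 and fell by 0.45 in L-iAMPK. Foxo1 differed by -0.53 and Zfp276 by -0.47, with L-iAMPK differences of -0.47 and -0.48 whose calls were lost with median-ratio scaling (limma adjusted p = 0.0839 and 0.0507). Arhgef26 differed by -0.98 in iAMPK and by -0.49 in L-iAMPK livers (limma adjusted p = 0.0561), and Ugcg by 0.46 and 0.01, and neither interaction passed the test. Ccnf, Bcl2a1b, Ncf4 and Tmed3 went in opposite directions in the 2 genotypes, with interactions of 1.24, -2.58, -1.54 and -0.89 that passed the test. The 10 genes were chosen for their iAMPK change, which enters the interaction, so the choice raised the size of these interactions. None of the iAMPK changes themselves passed the limma test.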

How the data were processed

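Liver mRNA in 12 libraries, 3 in each of 4 groups, was sequenced from stranded libraries, per the labels. The submitters' processing notes name FastQC, STAR 2.4.0k, HOMER, edgeR 3.6.8 and the mm10 build, and whether counting used strand is not stated there. The authors deposited FPKM values, to which 0.5 had been added and was subtracted here, and scaled tag counts, a signal whose low values were multiples of what a read is worth and were turned back into reads. Values within 0.02 of a whole number were taken as whole. The tables listed 24453 genes, 4210 of them with another transcript in each table, and 0 on the mitochondrial chromosome, whose genes were not analysed here.

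Genes with at least 0.5 FPKM in at least 3 libraries were tested on log2(FPKM + 0.5) with limma 3.58.1 in R 4.3.3, fitting 4 group means over 12 libraries with a mean trend and robust shrinkage, so all groups share an estimate of the spread. P-values were Benjamini-Hochberg adjusted over 12614 genes with a threshold of 0.05. Bounds came from the same fit, as 95% intervals and as one-sided tests against limits of 2-fold and 1.5-fold. Counting margins came from recovered reads and cover counting error only. Read counts were tested with edgeR 4.0.16 and DESeq2 1.42.0 as alternatives, and other pseudocounts (0.1 and 1), filters, scalings, array weights, a replicate block and leaving out each library were tried. In iAMPK HFD+dox replicate 2 a read was worth 0.995 tags, so whole reads and whole tags are harder to tell apart there, and an edgeR fit without it, on 11 libraries, was chosen after seeing the data. The fit was tested on simulated data.

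Genes were named by rule: for each direction the 5 with the smallest p among those with a mean of at least 1 FPKM, in each list up to 4 with the smallest p, the highest expressed and the one with the widest interval, fixed marker genes, and the 10 largest changes in each direction in L-iAMPK. Genes named as extremes of a list or as calls of a single tool were chosen after their values were seen. The comparison and gene lists were chosen with earlier results of these data known.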

Additional observations from a re-analysis of the deposited data

Results flagged for a closer look

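The effect of doxycycline differed between L-iAMPK and iAMPK livers for 1663 genes, by limma's interaction test with an adjusted p under 0.05. The values that follow are that difference on the log2 scale, L-iAMPK minus iAMPK, for the genes named above, with no explanation weighed. Among macrophage, antigen presentation and inflammatory genes the differences were Lcn2 -5.34, Saa2 -4.25, Saa1 -3.41, Il1rn -2.52, H2-Ab1 -2.37, H2-Aa -2.18, Gbp2 -2.18, Ccr2 -2.18, Cd74 -1.96, Cd68 -1.53, Cxcl16 -1.05, Cxcl12 0.59, Mt1 1.44, Serpina3k 2.55, Bcl2a1b -2.58 and Ncf4 -1.54. Among matrix, metalloproteinase and proliferation genes they were Mmp12 -3.98, Timp1 -2.51, Mmp13 -2.42, Col1a1 -2.41, Tagln -1.33, Mmp2 -1.11, Mcm5 -1.39, Mcm3 -1.33, Myc -2.33, Klf6 -2.06 and Ccnf 1.24. Among metabolic and transport genes they were Acsf2 -4.05, Ces1g -3.87, Abcc3 -3.55, Muc13 5.57, Cyp2c29 2.68, Csad 2.41, Ppp1r3b 1.91, Mvk -1.86, Slc10a1 1.32, Ugt1a9 -0.83 and Nr1i3 -0.80. The AMPK subunits gave Prkaa1 8.24, Prkaa2 0.55 and Prkag2 -0.38, the mitochondrial protease gave Lonp1 -0.39 and the trafficking gene Tmed3 -0.89. With median-ratio scaling the interactions of Lonp1, Mmp2, Nr1i3 and Prkag2 no longer passed the test (limma adjusted p = 0.0955, 0.0587, 0.128 and 0.134).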

How the results depend on the processing

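Doxycycline in iAMPK livers called 0 genes in every setting run except DESeq2 on recovered reads (15), array weights (3, namely Slc51b, Bcl2a1b and Ccnf) and the fit without L-iAMPK HFD+dox replicate 1 (1, Ccnf, adjusted p = 0.00627), so leaving out a library gave 0 to 1. Genes bounded within 2-fold numbered 11519 to 11995 when a library was left out, and genes bounded within 1.5-fold 9491 to 10494. With no expression filter 15973 of 18550 genes (86.1%) were bounded within 1.5-fold, beside 10366 of 12614 (82.2%) with the filter. Bounded members were 140 in every left-out fit for mitochondrial translation, 78 to 80 for the respiratory chain and 77 to 129 for inflammation. Calls in L-iAMPK were 5390 with array weights and 1874 to 3738 with a library left out. Interaction calls were 4673 with array weights, 736 with edgeR on 11 libraries, without iAMPK HFD+dox replicate 2 (1850 with edgeR on all 12), and 527 to 2803 with a library left out. The cause of these shifts was not tested. Upward and downward calls in L-iAMPK were 1814 and 1792 with DESeq2 and 1651 and 1735 with edgeR, and in the interaction 1074 and 1248 with DESeq2, 811 and 1039 with edgeR and 747 and 625 with quantile normalization. Of the list medians recomputed under alternatives, 1033 moved by less than the spread between replicates and 5 by more, and of single-gene values 6288 and 72. The neutrophil and lymphocyte medians could not be computed with a filter at 2 FPKM.

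Labels give the groups the same replicate numbers. Same-numbered iAMPK livers had correlated deviations of 0.446, 0.082 and 0.122 for replicates 1, 2 and 3, and other pairs -0.286 to 0.216. The main fit did not take the numbers as pairs, and whether they mark pairs was not tested. With a replicate block, 0 genes were called in iAMPK, 11909 were bounded within 2-fold, 2919 were called in L-iAMPK and 1431 in the interaction. Weakly expressed genes are limited by depth, with a median of 29 reads per library below 1 FPKM.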
